A study of Mus musculus with 2 samples.

Results

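The tumour necrosis factor (TNF) superfamily was examined in cells sorted from mouse dorsal skin and labelled as keratinocytes. The sorted fraction also carried RNA of other cells, as given below. Its members were taken by gene symbol: the TNF and TNFR superfamily numbers, the genes that carry older names (Tnf, Lta, Ltb, Fas, Fasl, Cd27, Cd40, Cd40lg, Cd70, Ltbr, Ngfr and the ectodysplasin genes), and the adaptor Edaradd. This rule found 46 of the 50559 genes in both files, of which 18 encode ligands, 27 encode receptors and 1 encodes an adaptor. The cells were live GFP-positive cells of mice with the genotype Polr2b.fl.fl.GFP; K14Cre at postnatal day 21, when the labels place the skin in telogen (follicles at rest). Polr2b encodes a subunit of RNA polymerase II, and the keratin 14 promoter that drives Cre is active in basal keratinocytes and in follicle epithelium. There was 1 group of 2 replicate libraries and no group without the transgenes, so levels within the fraction and the difference between the libraries are described, with no contrast of conditions.

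Ligands of this superfamily are mostly trimeric membrane proteins, some of which are shed as soluble factors, and their receptors signal when clustered by the trimer. Receptors with a death domain can recruit adaptors that activate caspases, receptors without one recruit TRAF proteins, and both kinds reach the NF-kB factors. Decoy receptors bind ligand without passing on a full signal. In skin, ectodysplasin and its receptor are known for their part in the formation of hair follicles, and TNF for its part in inflammation.

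Replicate 1 held 36692204 counts and replicate 2 held 33489967 counts. The unit CPM is a gene's count after scaling each library to the same total. It is used within a gene, while TPM, which also divides by the deposited gene length, serves wherever genes are compared with each other. Mean ± SD is over the 2 libraries. The fraction carried epidermal RNA, with all 7 basal markers at 333 CPM or more in both libraries and Krt5 at 3997 and 6249 CPM. In a gate labelled as keratinocytes it also carried RNA of other cells, among them macrophage markers (8 genes, summing to 7677 and 8359 CPM) and fibroblast markers (8 genes, 13639 and 6766 CPM). Markers of T and NK cells (8 genes, 5.40 and 4.03 CPM) and of B and plasma cells (5 genes, 3.73 and 2.66 CPM) had far lower sums. The highest of each list by mean were Cd2 at 3.52 and 1.55 CPM and Cd79b at 2.40 and 0.806 CPM. In bulk RNA, fewer cells of a type and less RNA per cell cannot be told apart. Xist had 112587 counts in replicate 1 and 11 in replicate 2, while the Y-linked Ddx3y had 0 and 1618. Replicate 1 thus held Xist with almost no Y-linked RNA and replicate 2 the reverse, so they were not 2 preparations of the same RNA. Nothing in the labels ties each library to an animal of its own, and the tests below measure only the difference between these 2 samples.

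Receptors were more widely detected than ligands. At 1 CPM or more in both libraries stood 24 of 27 receptors, 9 of 18 ligands and Edaradd, or 34 of the 46 members (73.9%), beside 31.3% of all genes in the files. The median receptor level was 12.3 TPM in replicate 1 and 11.2 TPM in replicate 2, and the median ligand level was 1.08 and 0.788 TPM. On the log2(TPM + 0.1) scale the receptor median exceeded the ligand median by 3.57 ± 0.15 (SD, n = 2), with 3.46 in replicate 1 and 3.68 in replicate 2. The size of this difference moved with the unit, the pseudocount and the filter, down to 2.13 over members with 10 or more counts in total. No test is given for it, since the smallest two-sided p that sign flips of 2 values allow is 0.5.

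**Figure D1:**
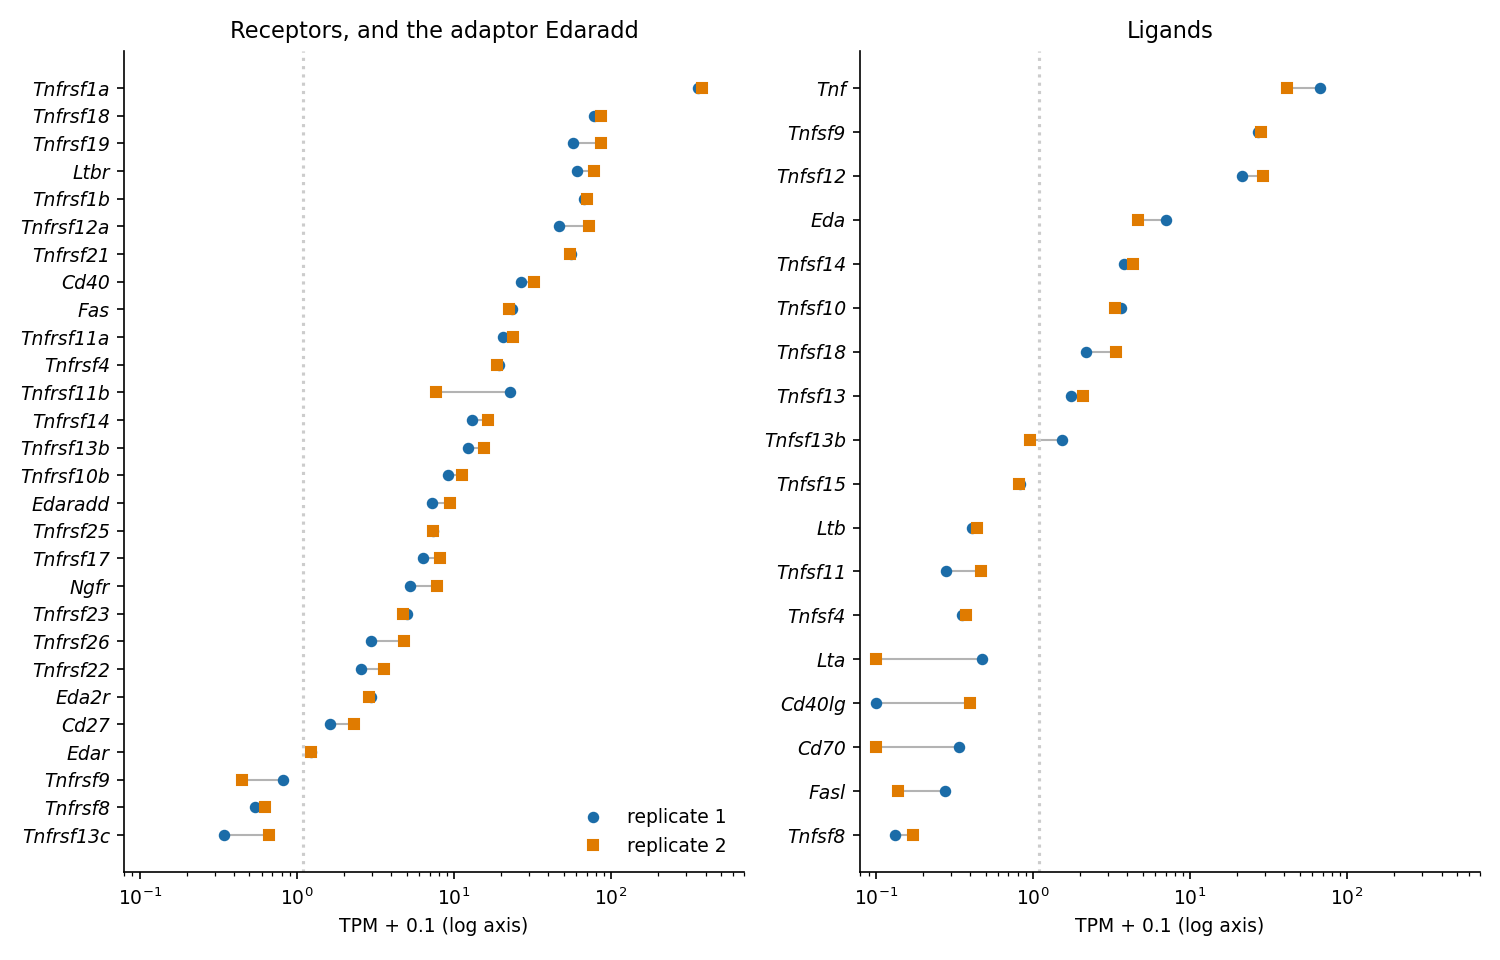
TPM plus 0.1 (log axis) of the 27 receptors with Edaradd (left) and the 18 ligands (right) in replicate 1 (circles) and replicate 2 (squares), ordered by the mean of both libraries; the dotted line marks 1 TPM. Tnfrsf1a stands apart at the top at 360 and 380 TPM, and 9 of the 18 ligands lie below 1 TPM in both libraries.

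The most abundant member was Tnfrsf1a, the widely expressed TNF receptor with a death domain. It had 11504 counts in replicate 1 and 11060 in replicate 2, or 360 and 380 TPM. This placed it at the 98.1 percentile of TPM among the 15833 genes detected at 1 CPM in both libraries. It alone held 34.3% of the summed TPM of all members in replicate 1 and 33.1% in replicate 2. The other TNF receptor, Tnfrsf1b, which lacks a death domain, stood at 66.9 and 70.8 TPM.

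The remaining 6 death domain receptors were all detected and spread over a wide range. Tnfrsf21, also called death receptor 6, stood at 55.2 TPM in replicate 1 and 54.8 TPM in replicate 2. Fas, which triggers apoptosis when bound by Fas ligand, stood at 23.3 and 22.3 TPM. Both genes had close values in the libraries, and neither passed the test between them. Tnfrsf10b, the TRAIL receptor of mice that signals death, stood at 9.11 and 11.2 TPM. Tnfrsf25, the receptor of the ligand Tnfsf15, stood at 7.25 and 7.23 TPM. Ngfr, the low-affinity receptor of neurotrophins, stood at 5.13 and 7.72 TPM. It is also a Schwann cell gene, and the 5 Schwann cell markers summed to 146 and 176 CPM, of which Erbb3 gave 130 and 162 CPM and Sox10 gave 3.05 and 2.57 CPM. Their part in the Ngfr level was not tested. Edar, the ectodysplasin receptor of hair placodes, was the lowest of the group at 1.13 TPM in each library, from 94 and 86 counts.

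Among receptors without a death domain, 4 besides Tnfrsf1b stood above 46 TPM in both libraries. Tnfrsf18, best known as the costimulatory receptor GITR of regulatory T cells, stood at 77.6 and 86.7 TPM. Tnfrsf19, or TROY, stood at 56.8 and 86.4 TPM. Ltbr, the lymphotoxin beta receptor, stood at 60.6 and 77.7 TPM, and Tnfrsf12a, the receptor of TWEAK, at 46.5 and 72.3 TPM. In the order Tnfrsf18, Tnfrsf19, Ltbr, Tnfrsf1b, Tnfrsf12a and Tnfrsf21, the ranges of neighbouring genes overlapped, so neighbours did not differ beyond their spread. Tnfrsf18 lay above Tnfrsf1b, Tnfrsf12a and Tnfrsf21 in both libraries with no overlap.

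Below these came receptors of intermediate level. Cd40, which on antigen-presenting cells receives T cell help, stood at 26.5 and 32.5 TPM. Tnfrsf11a, the receptor RANK, stood at 20.3 and 23.6 TPM, and Tnfrsf14, the herpesvirus entry mediator, at 12.9 and 16.5 TPM. Eda2r, the receptor of the second ectodysplasin isoform, stood at 2.85 and 2.76 TPM. Edaradd, the adaptor that links Edar to its downstream kinases, stood at 7.20 and 9.29 TPM, above its receptor Edar in both libraries.

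Several receptors that are best known from lymphocytes were detected in a fraction where most lymphocyte markers were below 1 CPM. Tnfrsf4, the costimulatory receptor OX40 of T cells, had 368 and 325 counts (19.4 and 18.8 TPM), and Tnfrsf18 had 1183 and 1205 counts. Of the 8 T and NK cell markers, Cd2 alone reached 1 CPM in both libraries, with 129 and 52 counts. Trac and Trdc had no count in either library, Cd3d had 3 and 0 counts, Cd3g 0 and 9, Cd3e 29 and 32, Lck 35 and 35 and Nkg7 2 and 7. Tnfrsf13b, or TACI, had 532 and 612 counts (12.3 and 15.5 TPM), and Tnfrsf17, the plasma cell receptor BCMA, had 126 and 147 counts (6.26 and 8.01 TPM). Of the 5 B and plasma cell markers none reached 1 CPM in both libraries. Cd79b had 88 and 27 counts, Ms4a1 had 24 and 38, Cd79a 17 and 11 and Jchain 2 and 6. The third B cell receptor of this family, Tnfrsf13c, was near the floor with 7 and 15 counts. Cd27 stood at 1.53 and 2.21 TPM, while Tnfrsf8 had 23 and 25 counts and Tnfrsf9 25 and 11 counts, both below 1 CPM. The part of lymphocytes in these receptor levels was not tested. Part of the Tnfrsf18 exons, 27.2% of their bases in the GENCODE M21 annotation, overlaps the antisense gene Gm16008, which had 48 and 20 counts.

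The 3 decoy receptors were all detected. Tnfrsf11b, or osteoprotegerin, which captures the ligands Tnfsf11 and Tnfsf10, had 991 counts in replicate 1 and 301 in replicate 2 (22.8 and 7.60 TPM). The libraries stood far apart for this gene. The mouse decoys for TRAIL, Tnfrsf23 and Tnfrsf22, stood at 4.93 and 4.65 TPM and at 2.45 and 3.49 TPM. The related gene Tnfrsf26 stood at 2.86 and 4.74 TPM. Tnfrsf22 and Tnfrsf23 share 527 stretches of 75 bases, 12.9% of the longest Tnfrsf22 transcript and 16.1% of that of Tnfrsf23, so their separate counts are uncertain.

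Of the ligands, 3 stood above 20 TPM in both libraries. Tnf itself had 1643 counts in replicate 1 and 928 in replicate 2, which was 67.1 and 41.6 TPM. Tnfsf9, the ligand of the costimulatory receptor Tnfrsf9, stood at 27.2 and 28.3 TPM, and Tnfsf12, or TWEAK, at 21.4 and 29.2 TPM. The ranges of Tnfsf9 and Tnfsf12 overlapped, and both lay below that of Tnf. Eda, the ectodysplasin gene, followed at 6.92 and 4.60 TPM. Tnfsf14 stood at 3.69 and 4.24 TPM, Tnfsf10, or TRAIL, at 3.55 and 3.25 TPM, Tnfsf18 at 2.09 and 3.30 TPM and Tnfsf13, or APRIL, at 1.65 and 1.99 TPM. Tnfsf15 was detected with 62 and 56 counts. In the reference annotation 48.3% of the exon bases of Tnfsf12 and 60.0% of those of Tnfsf13 overlap the joint transcript Tnfsfm13, which had 0 and 6 counts. How the counting treated reads in shared exons is unknown. On the opposite strand, Tnfsf13os overlaps 13.5% of the Tnfsf13 exons and had 52 and 39 counts, and Gm11110 overlaps 14.9% of those of Tnfsf9 and had 23 and 26 counts.

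The other 9 ligands were below 1 CPM in at least 1 library. Tnfsf13b, or BAFF, had 46 and 25 counts (1.25 and 0.746 CPM). Fasl had 5 and 1 counts, Tnfsf8 had 2 and 4, Tnfsf4 had 6 in each library, and Tnfsf11, the osteoclast factor RANKL, had 6 and 11. Cd40lg had 0 counts in replicate 1 and 5 in replicate 2, while Cd70 had 3 and 0. The floor for a gene with no count, set at 3 counts, was 0.0818 CPM in replicate 1 and 0.0896 CPM in replicate 2.

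Tnf lies between Lta and Ltb in 1 cluster on chromosome 17, and the 3 neighbours differed widely. Lta, the gene of lymphotoxin alpha, had 9 counts in replicate 1 and 0 in replicate 2. Ltb, whose product joins lymphotoxin alpha at the membrane, had 5 counts in each library. Tnf stood at 67.1 and 41.6 TPM between them. The 250 bases before each start site, from RefSeq on GRCm38.p6, are shown for these neighbours because 1 of them was abundant and the others were not. This locus was picked after the levels were seen. They lie at chr17:35202008-35202257 (minus strand) for Tnf, chr17:35205352-35205601 (minus strand) for Lta and chr17:35194257-35194506 (plus strand) for Ltb. Capitals mark matches, on either strand, to 3 motifs: the kappaB consensus, which NF-kB factors bind, TATAAA, and the AP-1 motif TGANTCA.
Tnf: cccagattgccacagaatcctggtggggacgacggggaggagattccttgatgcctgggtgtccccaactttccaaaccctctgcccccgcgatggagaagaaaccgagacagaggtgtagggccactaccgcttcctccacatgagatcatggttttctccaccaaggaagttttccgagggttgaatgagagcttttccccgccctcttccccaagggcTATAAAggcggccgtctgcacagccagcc
Lta: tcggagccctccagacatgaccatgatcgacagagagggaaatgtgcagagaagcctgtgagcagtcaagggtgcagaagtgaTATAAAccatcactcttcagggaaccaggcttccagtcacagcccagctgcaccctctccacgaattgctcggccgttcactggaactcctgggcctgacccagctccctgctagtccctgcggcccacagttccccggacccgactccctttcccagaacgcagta
Ltb: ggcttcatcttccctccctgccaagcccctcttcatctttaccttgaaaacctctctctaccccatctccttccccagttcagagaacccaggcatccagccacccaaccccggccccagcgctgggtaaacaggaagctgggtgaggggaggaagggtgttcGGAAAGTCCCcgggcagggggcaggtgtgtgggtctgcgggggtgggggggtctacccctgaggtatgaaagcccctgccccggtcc
In Ltb the kappaB match begins 87 bases before the start site, and neither Tnf nor Lta holds one in this window. TATAAA begins 29 bases before the start site in Tnf and 167 bases before it in Lta. None of the 3 windows holds TGANTCA. The table gave 40 windows for 36 members and 32851 in all. The kappaB consensus was found in 10% of the member windows (Ltb, Tnfrsf25, Tnfrsf8 and Tnfrsf9) and in 7.25% of all windows. TATAAA was found in 17.5% and 12.4%, and TGANTCA in 15% and 6.75%, the latter for Fas, Tnfrsf8, Tnfrsf9, Tnfsf13, Tnfsf13b and Tnfsf14. The search began with kappaB and TGANTCA in windows of 300 bases that include 50 transcribed bases, where the shares were 10% and 8.46% for kappaB and 17.5% and 7.81% for TGANTCA. The shorter window and TATAAA were chosen after those shares and the printed sequences had been seen, so the shares carry no test. The motifs do not overlap each other in the 3 windows shown. These matches describe letters in the windows, and binding was not measured.

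In all, 22 of the 46 members lie within 200 kb of another member, in 9 clusters. This distance was chosen after the levels were seen. Within a cluster, Tnfsf9, at 27.2 and 28.3 TPM, neighbours Tnfsf14 at 3.69 and 4.24 TPM and Cd70, which had 3 and 0 counts. Tnfrsf1b, at 66.9 and 70.8 TPM, neighbours Tnfrsf8 at 0.444 and 0.530 TPM. On chromosome 6 the cluster held the most abundant member, Tnfrsf1a, with Ltbr at 60.6 and 77.7 TPM and Cd27 at 1.53 and 2.21 TPM. In contrast, the neighbours Tnfrsf18 and Tnfrsf4 were both above 18 TPM.

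Matching ligands with their receptors showed which partners were measured together in the fraction. Of 30 known pairs, 15 had both partners detected at 1 CPM in each library, 12 had the receptor alone, 1 had the ligand alone and 2 had neither. Pairs share genes, so they are not independent. In 11 of the 15 pairs with both partners, the receptor was higher in TPM than the ligand in both libraries. Tnfrsf18 exceeded its ligand Tnfsf18 by 37.0-fold in replicate 1 and 26.2-fold in replicate 2. Ltbr exceeded Tnfsf14 by 16.4-fold and 18.3-fold, and Tnfrsf1a exceeded Tnf by 5.37-fold and 9.14-fold. Tnfrsf12a exceeded Tnfsf12 by 2.17-fold and 2.48-fold.

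The ectodysplasin pairs went the other way. Edar stood at 0.163 of the level of Eda in replicate 1 and 0.246 in replicate 2, and Eda2r at 0.412 and 0.601. In the remaining 2 pairs the order changed between the libraries. Tnfrsf1b stood at 0.998 of Tnf in replicate 1 and 1.70 in replicate 2, and Tnfrsf22 at 0.690 and 1.07 of Tnfsf10. The pair with the ligand alone was Tnfsf9, at 27.2 and 28.3 TPM, with its receptor Tnfrsf9 at 0.719 and 0.347 TPM. Receptors without a detected ligand included Fas, Cd40 and Tnfrsf11a, whose ligands Fasl, Cd40lg and Tnfsf11 stood near the floor.

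**Figure D2:**
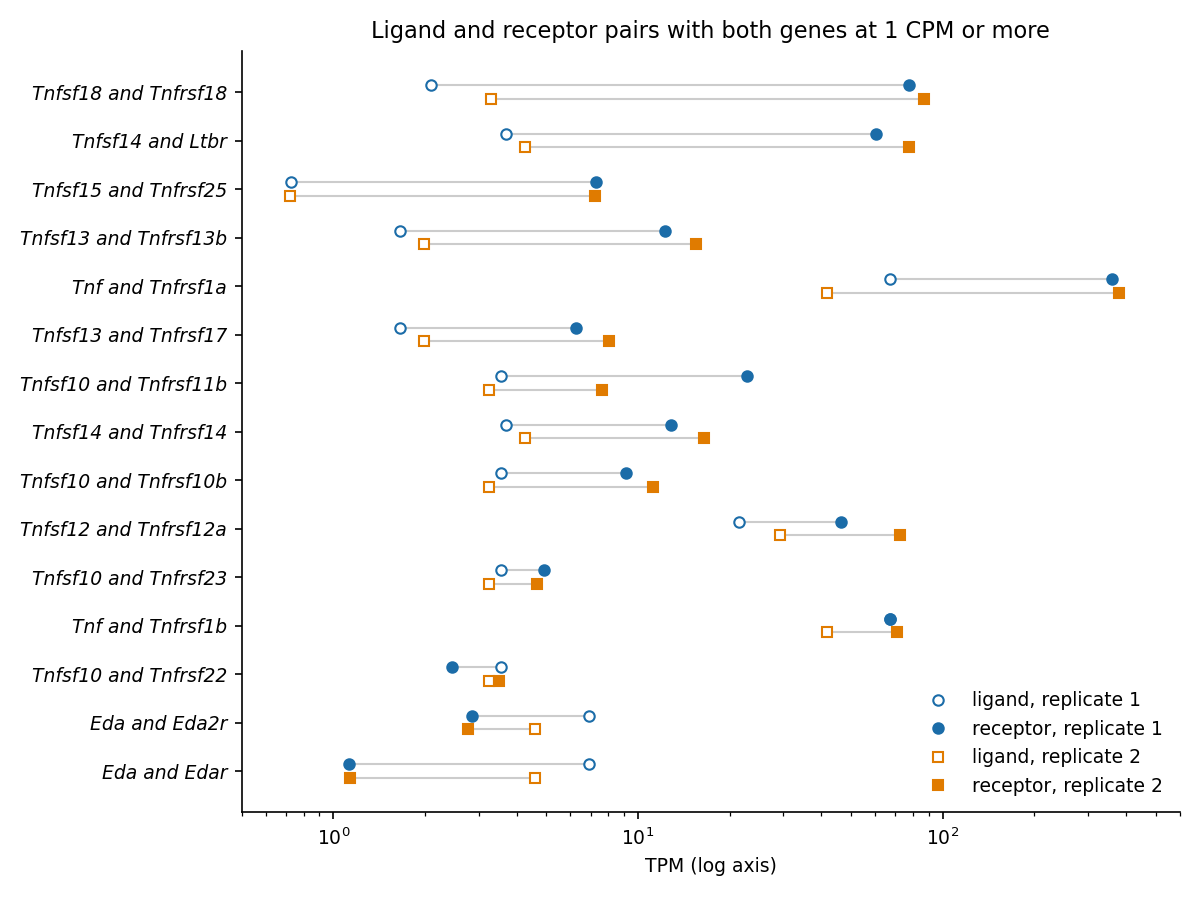
TPM (log axis) of ligand (open symbols) and receptor (filled symbols) in replicate 1 (circles) and replicate 2 (squares) for the 15 pairs with both partners detected, ordered by the ratio of receptor to ligand. The receptor lies to the right of the ligand in both libraries in 11 pairs, and to the left in both libraries in the 2 Eda pairs.

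The second comparison was between the libraries. For every gene with 10 or more counts in total, the share of counts that fell in replicate 2 was set against that of the library totals. An exact binomial test (two-sided) was used, with Benjamini-Hochberg adjustment over all 23690 genes. This test compares 2 libraries, not conditions, and covers counting error only. Of 41 members tested, 17 were higher and 3 were lower in replicate 2. Over all tested genes, 16.9% were called higher and 27.2% lower. The median log2 ratio was 0.20 over the tested members and -0.09 over all tested genes. With TMM factors the members split into 18 higher and 3 lower, and all genes into 22.7% higher and 21.4% lower. edgeR's exact test, run with library totals, includes the spread between these libraries. With 1 dispersion shared by all genes (a coefficient of variation of 23.4%) it called 0 members and 0.274% of all genes, and 1 member (Tnfrsf11b) and 1799 genes had an unadjusted p under 0.05. With a dispersion for each gene it called 0 members and 0% of all genes, and the same member and 383 genes had an unadjusted p under 0.05. The run with a dispersion for each gene was made first, and the shared dispersion was taken after its result had been seen. With 2 libraries of 1 group, a difference between them enlarges either estimate.

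The member with the largest absolute ratio among those called was Tnfrsf11b, at 27.0 and 8.99 CPM in replicates 1 and 2. Its log2 ratio was -1.59 (exact 95% interval -1.78 to -1.40), or 3.01-fold lower, with a binomial adjusted p of 1.84e-71 and an edgeR exact test adjusted p of 0.162 with the shared dispersion and 1 with a dispersion for each gene. The fibroblast markers moved the same way. All 8 were lower by the binomial test, beside 27.2% of all tested genes. Their median log2 ratio was -0.94, and their summed level was 13639 and 6766 CPM. All 5 mast cell markers were lower too, with summed levels of 21.3 and 8.93 CPM, as were 4 of 5 endothelial markers, with summed levels of 57.2 and 36.3 CPM. By edgeR's exact test no marker of these lists was called. The part of these cell types in the Tnfrsf11b difference was not tested.

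The other members called lower were ligands. Tnf stood at 44.8 and 27.7 CPM, a log2 ratio of -0.69 (-0.81 to -0.58). Of the 8 macrophage markers, 4 were higher and 2 lower in replicate 2, beside 16.9% and 27.2% of all tested genes. Their median log2 ratio was 0.03. With TMM factors 6 were higher and 1 lower, beside 22.7% and 21.4% of all genes. Of the lymphocyte markers Cd2 and Cd79b were lower, at log2 ratios of -1.18 and -1.57. Cd207, Epcam and H2-Ab1 of the 5 dendritic and Langerhans cell markers were lower too, and Itgax and Flt3 were not called. These 5 markers summed to 205 and 147 CPM, nearly all of it from Epcam (103 and 74.5 CPM) and H2-Ab1 (93.2 and 67.2 CPM). Cd207 stood at 6.35 and 2.84 CPM. By edgeR's exact test no marker of these lists was called. The part of these cell types in the Tnf difference was not tested. Eda stood at 14.3 and 9.47 CPM, a log2 ratio of -0.59 (-0.80 to -0.39). Eda lies on the X chromosome, and the libraries differed in Xist and Y-linked RNA. Eda2r, also on the X chromosome, stood at 6.70 and 6.48 CPM with a log2 ratio of -0.05 (-0.32 to 0.22) and was not called. The difference in Xist and Y-linked RNA lies between the same 2 libraries as every ratio given here, not only that of Eda. Its part in the ratio of any member was not tested and cannot be told apart with these 2 libraries.

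The 17 members called higher in replicate 2 were 14 receptors, 2 ligands and Edaradd, and their ratios were small. Tnfrsf26 had the largest, at 4.96 and 8.21 CPM with a log2 ratio of 0.73 (0.45 to 1.01). The ligand Tnfsf18 followed at 1.74 and 2.75 CPM, a log2 ratio of 0.66 (0.18 to 1.14). Tnfrsf12a stood at 18.1 and 28.1 CPM, a log2 ratio of 0.63 (0.49 to 0.78), and its ligand Tnfsf12 at 14.6 and 19.9 CPM, a log2 ratio of 0.44 (0.28 to 0.61). Both genes of the TWEAK pair were thus among the 17 of 41 tested members called higher, beside 16.9% of all tested genes. So were Tnfsf18 and its receptor Tnfrsf18, the latter at a log2 ratio of 0.16. By edgeR's exact test no gene of either pair was called.

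Tnfrsf19 stood at 113 and 171 CPM, a log2 ratio of 0.60 (0.54 to 0.66), and Ngfr at 7.06 and 10.6 CPM, a log2 ratio of 0.59 (0.35 to 0.82). Ltbr, Tnfrsf14 and Edaradd each lay at a log2 ratio of 0.36, Tnfrsf13b at 0.33, Tnfrsf22 at 0.51, Tnfrsf10b at 0.30, Cd40 at 0.29, Tnfrsf11a at 0.21 and Tnfrsf18 at 0.16. The smallest ratios among the members called higher were those of Tnfrsf1a, at a log2 ratio of 0.07 (0.04 to 0.11) and Tnfrsf1b, at 0.08 (0.02 to 0.14). All 7 basal and 5 spinous epidermal markers were higher in replicate 2 as well, beside 16.9% of all tested genes. Their median log2 ratios were 0.47 and 0.78, with summed levels of 12212 and 17912 CPM and of 3117 and 6233 CPM. By edgeR's exact test no marker of these lists was called. The part of epidermal cells in the receptor ratios was not tested.

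The remaining 21 tested members were not called. Among those with enough counts for a narrow interval, Tnfrsf21 had a log2 ratio of -0.01 (-0.09 to 0.06), Fas of -0.07 (-0.21 to 0.08) and Tnfsf9 of 0.06 (-0.11 to 0.22). Edar, with fewer counts, had a log2 ratio of 0.00 (-0.44 to 0.44), and Tnfrsf13c had 1.23 (-0.15 to 2.77), so a difference of 2-fold in the latter was not detectable at this depth. The 5 members below 10 counts in total, Lta, Cd40lg, Cd70, Fasl and Tnfsf8, were not tested.

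**Figure D3:**
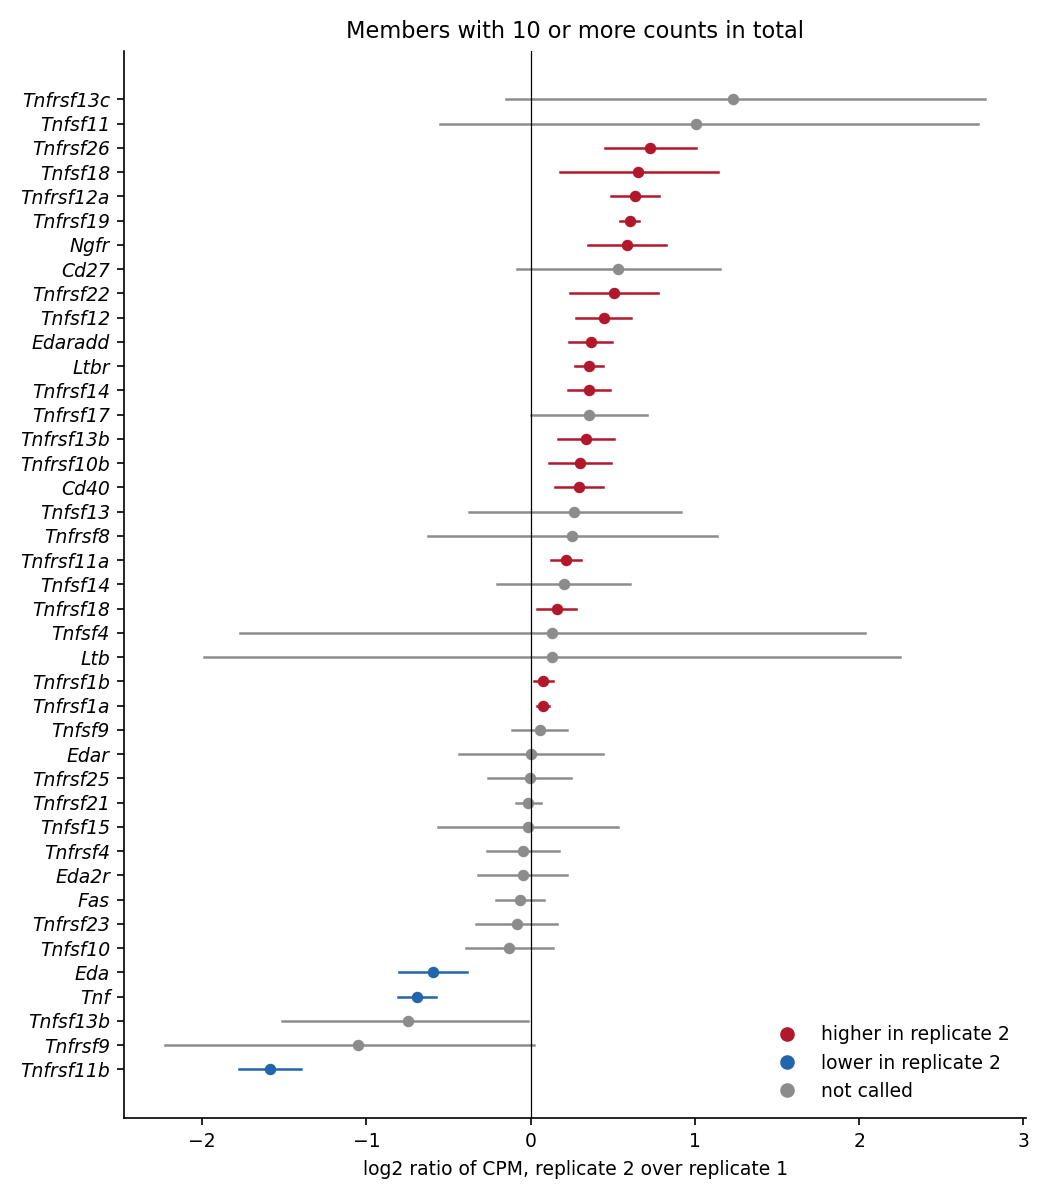
Log2 ratio of CPM, replicate 2 over replicate 1, of the 41 members with 10 or more counts in total, with exact 95% intervals that cover counting error only; red marks members called higher, blue those called lower and grey those not called by the exact binomial test. Tnfrsf11b lies lowest at -1.59, and the 17 members called higher lie between 0.07 and 0.73.

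Genes that carry the signal downstream of these receptors were measured from 7 lists of 46 genes. All 46 reached 1 CPM in both libraries and 42 reached 10 CPM in both. Of them, 13 were higher and 9 lower in replicate 2 by the binomial test, beside 16.9% and 27.2% of all genes. With TMM factors the split was 23 higher and 6 lower, beside 22.7% and 21.4% of all genes. With DESeq2 size factors it was 26 and 6, beside 23.2% and 21.0%. Their median log2 ratio was 0.04, none reached a 2-fold difference, and edgeR's exact test called 0 of them, with 0 at an unadjusted p under 0.05.

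Of the adaptors, Ripk1, the kinase that TNF receptors recruit, was highest at 40.7 and 39.3 TPM, followed by the ubiquitin ligase Traf6 at 33.9 and 35.3 TPM. Traf1 was lowest by its mean at 7.91 and 5.04 TPM, and of the 9 adaptors Tradd was higher and Traf1 and Ripk1 were lower in replicate 2. With TMM factors 4 were higher, Traf1 alone was lower, and the log2 ratio of Ripk1 went from -0.05 to 0.02. Among 6 cell death effectors, the initiator caspase gene Casp8 stood at 42.8 and 45.7 TPM, the necroptosis kinase Ripk3 at 29.8 and 29.6 TPM and its substrate Mlkl lowest at 7.95 and 8.97 TPM. None of the effectors was lower. The 4 genes that restrain death were all lower in replicate 2 with library totals, beside 27.2% of all tested genes. With TMM or DESeq2 factors 3 of them were lower, beside 21.4% and 21.0% of all genes, and Birc3 was not called. By edgeR's exact test none of the 4 was called. Birc3, a ubiquitin ligase induced by NF-kB, stood at 115 and 109 TPM, the caspase-8 inhibitor Cflar at 38.5 and 34.7 TPM and Xiap at 8.998 and 7.573 TPM. Their log2 ratios were small, from -0.08 for Birc3 to -0.39 for Birc2. The median log2 ratio of the 4 was -0.20, and -0.13 with TMM factors, beside -0.09 and -0.01 over all tested genes.

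Among NF-kB genes, the inhibitor Nfkbia, itself an NF-kB target, stood at 1006 and 1023 TPM, Nfkb1 at 91.8 and 93.9 TPM and Nfkb2 lowest by its mean at 17.8 and 24.3 TPM. Nfkb2, Rela and Relb were higher in replicate 2 and none of the 8 was lower, and with TMM factors 5 were higher. The deubiquitinase Tnfaip3, which ends TNF receptor signals, stood at 332 and 331 TPM, far above the other 6 genes of its list, where Rbck1 came next at 51.3 and 54.0 TPM and Cyld was lowest at 16.6 and 16.1 TPM. Of these 7 genes, Otulin and Tnip1 were higher and none was lower, and with TMM factors 4 were higher. Of the 8 TAK1 and IKK kinase genes, 3 were higher and 3 lower (4 and 2 with TMM factors), with Tab2 at 51.1 and 45.3 TPM, Map3k7 at 27.5 and 28.5 TPM and Ikbkg lowest by its mean at 10.3 and 9.31 TPM.

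The genes that shed Tnf from the membrane were all above 30 TPM. The partner of the protease, Rhbdf2, stood at 71.3 and 85.1 TPM, and the protease Adam17 itself at 70.1 and 81.2 TPM. Rhbdf1 was lowest of the 4 at 30.6 and 37.4 TPM. All but Adam10 were called higher in replicate 2 by the binomial test, beside 16.9% of all tested genes. The log2 ratios were 0.25 for Rhbdf2, 0.21 for Adam17 and 0.28 for Rhbdf1. With TMM factors the same 3 were higher, and with DESeq2 factors all 4, beside 22.7% and 23.2% of all genes. By edgeR's exact test none of the 4 was called, and neither was Tnf, which the binomial test called lower.

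**Figure D4:**
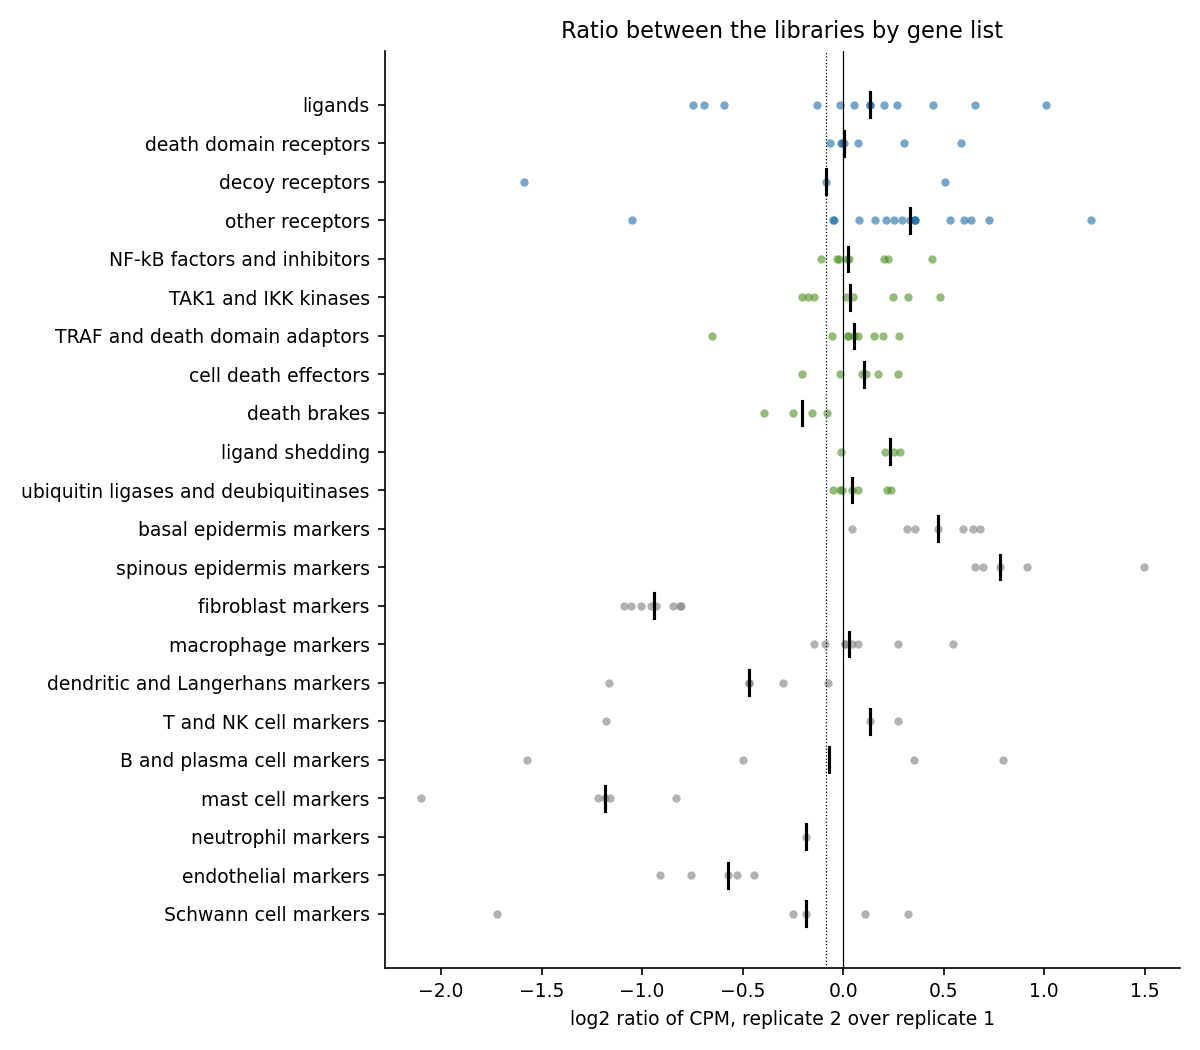
Log2 ratio of CPM, replicate 2 over replicate 1, of each tested gene (points) with the median of its list (black bars), for members by role (blue), pathway lists (green) and cell type markers (grey); genes without a count in 1 library are left out, and the dotted line is the median of all tested genes at -0.09. Fibroblast markers lie at a median of -0.94 and spinous markers at 0.78, while the pathway lists lie between -0.20 and 0.23.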

How the data were processed

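Total RNA of sorted skin cells was depleted of ribosomal RNA and sequenced as paired-end reads of 150 bases, per the labels' protocols. Each deposited file lists raw counts by gene together with gene lengths. The authors made the counts with featureCounts on mm39, according to the submitters' processing notes. Aligner, annotation, strand setting and multi-mapping rule are not given in these sources, so counts of overlapping and near-identical genes are uncertain. No row lacked a gene name.

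CPM were computed from library totals and TPM from counts and the deposited length, over all genes. The exact binomial test was run over all genes with 10 or more counts in total, with Benjamini-Hochberg adjustment at 0.05. edgeR 4.0.16 gave TMM factors and the exact test, which was run with library totals and without TMM factors. Its common and tagwise dispersions came from an intercept-only fit, since 1 group of 2 libraries allows no quasi-likelihood contrast. DESeq2 1.42.0 gave size factors. Intervals are exact (Clopper-Pearson) at 95%, and the floor for a count of 0 is 3 counts. The intervals are computed from counts alone and so cover counting error only. The labels name no molecular identifiers, so error from duplicate reads is not covered. The tests were checked on simulated data, the binomial test with counting noise only and edgeR's exact test with added spread. This check does not cover binomial calls where libraries vary beyond counting noise. Members and lists were chosen with earlier results of these data known. The common dispersion, the promoter window, TATAAA, the printed locus and the neighbour distance were chosen after results had been seen. Named are all members, the 2 highest and the lowest gene of each pathway list by mean TPM, and the markers beside the results they touch. Other pathway genes and single markers were named after their values were seen. Values of some listed genes are not reported here. Overlapping exons and shared stretches were read from GENCODE M21 and neighbours and promoters from RefSeq (GRCm38), for which all 46 members were found except 10 promoters; no mm39 coordinates are given. Software was Python 3.11.15, numpy 2.4.6, pandas 2.3.3, scipy 1.17.1 and R 4.3.3.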

Additional observations from a re-analysis of the deposited data

How the results depend on the processing

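The number of members detected at 1 CPM in both libraries, 34, was 33 at 1 TPM and 34 or 35 without either replicate, and 17 at 10 CPM. The receptor minus ligand difference of 3.57 was 3.24 with CPM, 2.74 with a pseudocount of 1 and 2.13 over members with 10 or more counts in total. With edgeR's exact test in place of the binomial test, 0 members and 0 pathway genes were called in either direction, with the common and with the tagwise dispersion. Under either, 1 member and 0 pathway genes had an unadjusted p under 0.05. Tagwise dispersion was run first and called 0 of all 23690 genes, and the common dispersion, which called 65, was adopted after that was seen. Member promoters with a match numbered 4, 7 and 6 for kappaB, TATAAA and TGANTCA in 250 bases and 4, 7 and 7 in 300 bases. Pathway genes called higher in replicate 2, 13 with library totals, were 23 with TMM factors and 26 with DESeq2 size factors, and those called lower went from 9 to 6 with either. TMM factors moved all ratios by the same amount, from a median of -0.09 over all genes to -0.01. Of the 41 tested members, 40 kept their call with TMM factors and with DESeq2 size factors, and Tnfrsf17 became called, at log2 ratios of 0.43 and 0.44. Without the filter on low counts, Lta was also called lower. Leaving out a replicate leaves 1 library, which allows no ratio. No paired analysis was possible because the series has a single group. The 12 members not detected at 1 CPM in both libraries had between 0 and 46 counts in a library, which leaves wide intervals on their ratios.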
